A study of Homo sapiens with 4 samples.

Results

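The genes described here are 10 secreted signalling molecules, the CXC chemokines CXCL1, CXCL2, CXCL3, CXCL5, CXCL6 and CXCL8, the chemokine CCL2, and the cytokines IL6, LIF and IL1B. They were taken by symbol from the 33538 genes counted, and all 10 passed the minimum of 4 UMIs in 1 library. A UMI marks 1 captured RNA molecule. The data are single-cell RNA-seq of HCEC 1CT cells, a line that the labels call human colonic epithelial progenitor cells and that was immortalised with TERT and CDK4. Cells carried either of 2 hairpins, shAPC directed at APC or the scrambled control shScr, both after puromycin selection, and were harvested at day 3 or day 7, which gives 4 groups of 1 library each and 1 cell line in all. Because each group held 1 library, no test between groups was possible, and every 95% interval below covers counting error only.

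CXCL1, CXCL2, CXCL3, CXCL5, CXCL6 and CXCL8 are known as neutrophil attractants that act through the receptors CXCR1 and CXCR2, and CCL2 attracts monocytes through CCR2. IL6 and LIF both signal through receptors that share IL6ST (gp130), and IL1B is a cytokine made as a precursor that is cut before release. Most of them are textbook targets of NF-κB, whose dimers bind short sites in the promoters of many inflammatory genes, and in the colon epithelial and stromal cells make these chemokines during inflammation.

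The kept cells numbered 1116 in shScr day 3, 788 in shAPC day 3, 2600 in shScr day 7 and 1478 in shAPC day 7, with 28451455 to 39797418 UMIs per library. The median UMIs per cell lay between 21029.5 and 49685.5 in 3 libraries and at 1330 in shScr day 7. In shAPC day 7, 51.3% of barcodes failed the limits on genes, UMIs or mitochondrial share, and 24.1% to 28.8% did elsewhere. APC, the target, had 16.1 CPM (UMIs of the gene scaled to a library total of 1000000) in shScr and 5.52 CPM in shAPC at day 3, and 19.1 and 6.61 CPM at day 7. The shScr day 3 and shAPC day 3 libraries had 19 kept cell barcodes in common, 2.41% of the smaller set, and the other pairs had 1 to 7. Cell Ranger 3.0.2 wrote both shScr matrices and 3.0.0 both shAPC matrices, so the software version and the shRNA cannot be told apart. The labelled cell type was checked against its markers. EPCAM had at most 2 UMIs and CDH1 at most 1 in any library, while the mesenchymal genes VIM and FN1 had 4010 to 5303 CPM and 2758 to 3676 CPM, so that 2 defining epithelial markers were nearly absent in all 4 libraries. The other 4 epithelial markers were detected at low levels, KRT8 at 9.57 to 19.4 CPM, CLDN7 at 6.26 to 16.9 CPM, KRT18 at 3.02 to 7.13 CPM and KRT19 at 2.34 to 5.72 CPM. Of 12 leukocyte markers, 8, 5, 7 and 4 were at 0 in the day 3 libraries (shScr first) and then the day 7 libraries, the order used for values below unless stated, with a summed level of 18.4 to 31.0 CPM that was mostly CD68. PTPRC, which marks all leukocytes, had 1 UMI in shAPC day 7 and 0 in the other 3 libraries.

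The 6 CXCL genes lie together on chromosome 4 (GRCh38, GENCODE 44, all protein coding). On the plus strand are CXCL8 (ENSG00000169429) at chr4:73740519-73743716, CXCL6 (ENSG00000124875) at chr4:73836640-73849064 and CXCL1 (ENSG00000163739) at chr4:73869393-73871308. On the minus strand are CXCL5 (ENSG00000163735) at chr4:73995642-73998677, CXCL3 (ENSG00000163734) at chr4:74036589-74038807 and CXCL2 (ENSG00000081041) at chr4:74097040-74099196. The other members are single genes elsewhere, namely IL1B (ENSG00000125538) at chr2:112829751-112836816 on the minus strand, IL6 (ENSG00000136244) at chr7:22725884-22732002 on the plus strand, CCL2 (ENSG00000108691) at chr17:34255274-34257208 on the plus strand and LIF (ENSG00000128342) at chr22:30240453-30246759 on the minus strand. CXCL1, CXCL2 and CXCL3 are close paralogs, as are CXCL5 and CXCL6, so reads could be split among them in the authors' counting and their separate levels are uncertain to that extent.

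The promoters are shown because the CXCL genes that moved apart in the counts have the same NF-κB-like letters near their starts. RefSeq windows (GRCh38.p14) of 250 bases before to 50 after the start were found for 8 members and not for CCL2 and LIF. Each line below gives 120 bases upstream of the RefSeq start and outside annotated exons, 5′ to 3′ on the gene's strand, and capitals mark matches to GGNNTTTCC. For IL6 the stretch lies inside the GENCODE locus, which begins with an exon of another transcript further upstream. CXCL3 and IL1B are not shown, since their stretches held no match. The matches of CXCL3 fall within an annotated exon, and the IL1B window has none. The stretches are chr4:73869273-73869392 (plus) for CXCL1, chr4:74099197-74099316 (minus) for CXCL2, chr4:73998678-73998797 (minus) for CXCL5, chr4:73836520-73836639 (plus) for CXCL6, chr4:73740399-73740518 (plus) for CXCL8 and chr7:22727027-22727146 (plus) for IL6.
CXCL1: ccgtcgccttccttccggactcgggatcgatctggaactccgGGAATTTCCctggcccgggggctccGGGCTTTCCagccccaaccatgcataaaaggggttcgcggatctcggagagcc
CXCL2: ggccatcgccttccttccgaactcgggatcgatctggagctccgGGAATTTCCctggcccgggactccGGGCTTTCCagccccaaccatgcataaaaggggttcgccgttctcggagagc
CXCL5: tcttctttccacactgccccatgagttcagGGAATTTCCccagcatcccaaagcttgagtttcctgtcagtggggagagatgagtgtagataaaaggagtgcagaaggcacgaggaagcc
CXCL6: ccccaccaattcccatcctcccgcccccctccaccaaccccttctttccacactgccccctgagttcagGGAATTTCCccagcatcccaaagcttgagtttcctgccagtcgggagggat
CXCL8: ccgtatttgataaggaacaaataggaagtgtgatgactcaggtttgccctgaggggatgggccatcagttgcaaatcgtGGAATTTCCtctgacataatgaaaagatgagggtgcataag
IL6: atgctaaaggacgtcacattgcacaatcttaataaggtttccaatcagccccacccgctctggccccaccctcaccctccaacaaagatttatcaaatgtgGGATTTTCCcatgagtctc
All 6 CXCL windows held the same 9 letters, GGAATTTCC, with the match beginning between -91 (CXCL8) and -77 (CXCL2) from the RefSeq start. CXCL1, CXCL2 and CXCL3 had another match, GGGCTTTCC, at -53 to -45, and IL6 had GGATTTTCC at -72 to -64. The motif GGNNTTTCC, searched on both strands, thus occurred in 7 of the 8 member windows and in 6.26% of the 35116 windows of the table. TGANTCA, the letters of an AP-1 site, occurred in the window of CXCL8 alone among the members, where it began at -137, and in 7.71% of all windows. TTGCNNAA, a C/EBP-like motif, occurred in CXCL2, IL6 and IL1B and in 10.5% of all windows. Over the 250 upstream bases CXCL5 and CXCL6 were 85.3% identical and CXCL1 and CXCL3 81.4%, against 43.9% to 54.2% for pairs outside the CXCL1, CXCL2 and CXCL3 trio and the CXCL5 and CXCL6 pair. A match is a description of letters and not of bound sites.

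The levels of the members were examined first. The kit tags 1 end of each transcript, so CPM were not divided by gene length. CXCL1 was the member with the most UMIs in all 4 libraries. At day 3 it had 246 CPM (95% interval 241 to 251) in shScr and 335 CPM (329 to 341) in shAPC, and at day 7 it had 364 CPM (358 to 371) and 296 CPM (289 to 302). CXCL8, also known as interleukin 8, came next in all 4, with 173 CPM (169 to 177), 245 CPM (240 to 250), 285 CPM (279 to 291) and 179 CPM (174 to 184) in the same order. Both genes were therefore lowest in shScr day 3 and highest in shScr day 7, and for CXCL8 the intervals of shScr day 3 and shAPC day 7 overlapped. Together they made up most of the CXCL UMIs, with CXCL1 at 39.1% to 46.9% of the CXCL total and CXCL8 at 27.5% to 31.8%. The 6 CXCL genes summed to 629, 787, 896 and 630 CPM.

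**Figure D1:**
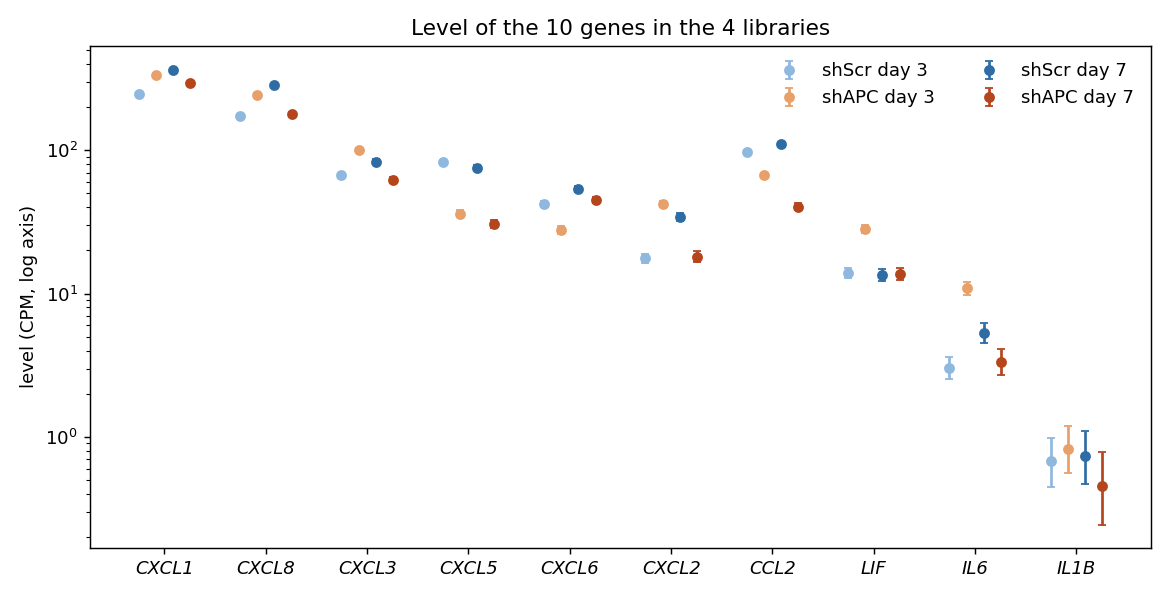
Level of each gene (CPM, log axis) in the 4 libraries, with exact Poisson 95% intervals that cover counting error only. CXCL1 and CXCL8 lie at 173 CPM or more in every library, IL1B lies under 1 CPM in all 4, and both shAPC points of CXCL5 lie below both shScr points.

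CXCL3 and CXCL2 followed CXCL1 in pattern at day 3. CXCL3 had 67.0, 101, 83.4 and 61.7 CPM, and CXCL2 had 17.6, 42.4, 34.3 and 18.1 CPM. Both were highest in shAPC day 3, and the CXCL2 intervals of shScr day 3 (16.3 to 18.9) and shAPC day 7 (16.6 to 19.7) overlapped. CXCL5 differed from these 4 genes, with 83.3 CPM in shScr day 3 and 75.6 CPM in shScr day 7 but 36.0 CPM in shAPC day 3 and 30.5 CPM in shAPC day 7. Its close paralog CXCL6 had 42.5, 27.8, 53.7 and 45.0 CPM, lowest in shAPC day 3, and the intervals of shScr day 3 (40.5 to 44.5) and shAPC day 7 (42.6 to 47.5) overlapped. CCL2 had 98.0 CPM in shScr and 67.1 in shAPC at the earlier day, then 111 and 40.4 at the later. For CXCL5 and CCL2 both shAPC libraries thus lay below both shScr libraries.

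The cytokines were scarcer. IL6 had 121, 381, 166 and 95 UMIs, which were 3.04, 10.9, 5.32 and 3.34 CPM, highest in shAPC day 3 and next in shScr day 7 (4.54 to 6.19 CPM), while the other 2 intervals overlapped. LIF, a cytokine of the IL6 family, had 13.9, 28.2, 13.5 and 13.7 CPM, so its 3 other libraries lay within counting error of each other. IL1B had 27, 29, 23 and 13 UMIs, or 0.68, 0.83, 0.74 and 0.46 CPM, and its 4 intervals all overlapped, so that a difference was not detectable at this depth.

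The effect of the shRNA at day 3 was compared next. Ratios are log2 of shAPC CPM over shScr CPM. At day 3, 6 members were higher in shAPC with intervals that excluded 0. IL6 had a ratio of 1.84 (1.54 to 2.15), CXCL2 of 1.27 (1.14 to 1.40) and LIF of 1.02 (0.87 to 1.17). CXCL3 was higher by 0.59, CXCL8 by 0.50 and CXCL1 by 0.45 (0.41 to 0.49). The last 3 ratios stood close to the rest of the transcriptome, since the median ratio of the 5175 genes of at least 20 CPM was itself 0.28 at day 3. With TMM scaling that median became -0.10, and the ratios of CXCL1, CXCL8 and CXCL3 became 0.07, 0.12 and 0.21, while CXCL2 became 0.89, no longer 2-fold, and IL6 1.46. CXCL5, CXCL6 and CCL2 were lower in shAPC at day 3, CXCL5 at -1.21 (-1.31 to -1.12), CXCL6 at -0.61 and CCL2 at -0.55, and TMM moved them to -1.59, -0.99 and -0.93. IL1B had a ratio of 0.29 (-0.52 to 1.10). The IL6 ratio rested on few cells, since it was 0.78 as a mean over cells of CPM and 1.07 without the 5% deepest cells, and cells thinned to 5000 UMIs held 14 IL6 UMIs in shScr and 17 in shAPC.

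On the log2(CPM + 1) scale IL6 and CXCL2 were at least 2-fold higher at day 3 and CXCL5 at least 2-fold lower, while LIF reached 2-fold only without the pseudocount of 1 CPM. CXCL2 lost the call with TMM, DESeq2 factors or thinned cells, and neither CXCL2 nor IL6 passed it with the mean over cells or without the 5% deepest cells. CXCL5 was at -0.96 without the deepest cells and at -0.97 in cells thinned to 2000 UMIs, and so lost it too. In cells thinned to 5000 UMIs CXCL5 was at -1.30, still more than 2-fold lower. Among all genes tested 3.86% were at least 2-fold higher in shAPC and 0.425% at least 2-fold lower at day 3. IL6 is not among the genes tested, since it lay under 20 CPM in both libraries. The median of the 10 members was 0.47, against 0.28 for all genes, and 7 members lay above 0 and 3 below. Leaving out the barcodes found in more than 1 library gave 1.54 for IL6 and 1.12 for CXCL2.

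**Figure D2:**
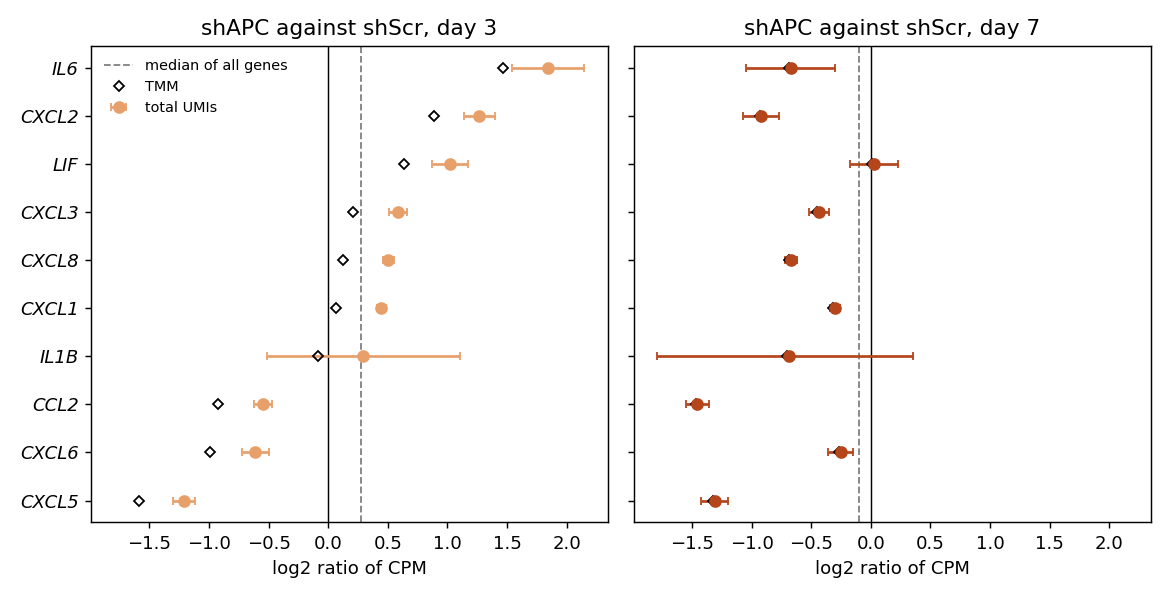
Log2 ratio of shAPC to shScr CPM for each gene at day 3 (left) and day 7 (right), with exact conditional binomial 95% intervals for total UMI scaling (filled) and the value with TMM scaling (open diamonds). The dashed line is the median of all genes tested, 0.28 at day 3 and -0.10 at day 7. CXCL5, CXCL6 and CCL2 lie left of it in both panels.

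At day 7 the direction differed for CXCL1, CXCL2, CXCL3, CXCL8 and IL6. CXCL2 was lower in shAPC by a log2 ratio of -0.92 (-1.07 to -0.77), CXCL8 by -0.67, IL6 by -0.67 (-1.05 to -0.30), CXCL3 by -0.43 and CXCL1 by -0.30 (-0.34 to -0.26). CXCL6 had a ratio of -0.25, which turned to 0.05 without its 5% richest cells in each library. Without their own 5% richest cells CXCL2 was at -0.15, CXCL3 at -0.11, CXCL1 at -0.18 and CXCL8 at -0.59. A single cell held 41.1% of the IL6 UMIs of shAPC day 7. LIF had a ratio of 0.02 (-0.18 to 0.23), and IL1B of -0.69 with an interval that included 0 (-1.79 to 0.35). CCL2 at -1.46 and CXCL5 at -1.31 (-1.42 to -1.20) were the 2 members at least 2-fold lower, and no member was at least 2-fold higher. Among all 4573 genes tested at day 7, 1.77% were at least 2-fold lower and 0.787% at least 2-fold higher. The median of the members was -0.49 against -0.10 for all genes, with 9 of 10 below 0. CXCL5 and CCL2 were the members below -0.50 at both days, also with TMM, where CXCL5 was at -1.59 and -1.32.

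The same counts were then compared across time within each shRNA. In shScr, 8 of the 10 members had more CPM at day 7 than at day 3, with a median log2 ratio of 0.32 against 0.05 for all genes. CXCL2 was higher by 0.96, IL6 by 0.81, CXCL8 by 0.72 and CXCL1 by 0.57. No member reached a 2-fold change there, in a comparison where 0.329% of genes were at least 2-fold higher and 0.79% at least 2-fold lower at day 7. In shAPC, 9 of 10 members had fewer CPM at day 7, with a median of -0.57 against -0.34 for all genes. IL6 fell by 1.71 on the log2 scale between the shAPC libraries, CXCL2 fell by 1.23 and LIF fell by 1.04, while CXCL6 was higher by 0.69. The shAPC ratios of CXCL1 (-0.18) and CXCL5 (-0.24) turned to 0.12 and 0.06 with TMM, and that of CXCL5 in shScr (-0.14) turned to 0.20 in cells thinned to 2000 UMIs. On the log2(CPM + 1) scale IL6 and CXCL2 were at least 2-fold lower, and LIF was not. Of the genes tested 5.78% were at least 2-fold lower and 0.058% at least 2-fold higher, and IL6, under 20 CPM, was not among them. Both comparisons use the same libraries as the comparisons between shRNAs, so they are not separate evidence.

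The members were then examined cell by cell, since a level of the library can come from few or many cells. The share of a gene's UMIs held by the 5% of cells richest in it was compared with the same share of every gene of at least 20 CPM. For CXCL8 this share was 47.9% in shScr and 59.6% in shAPC at day 3, and 64.6% and 60.0% at day 7. For CXCL1 it was 43.9%, 49.9%, 56.5% and 50.0%, and for CXCL2 70.3%, 78.2%, 89.4% and 81.0%. The median of all genes was 23.0%, 23.1%, 39.4% and 27.8%, and the deepest 5% of cells held 13.7%, 12.6%, 22.3% and 13.7% of all UMIs, so CXCL1 and CXCL8 were carried by fewer cells than most genes of at least 20 CPM. CXCL2 was itself under 20 CPM in shScr day 3 and shAPC day 7. CXCL5 had 51.6% to 63.3%, CXCL6 57.8% to 68.5%, CXCL3 53.8% to 72.0% and CCL2 51.5% to 76.2%. Every member of at least 20 CPM had at least 25% of its UMIs in 5% of cells, as had 30.8%, 35.9%, 98.1% and 68.5% of all genes in the 4 libraries, a level that discriminates little in the shallow shScr day 7 library. Cells with a UMI of IL6 were so few that 5% of cells held all of them in 3 libraries and 88.5% in shAPC day 3.

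**Figure D3:**
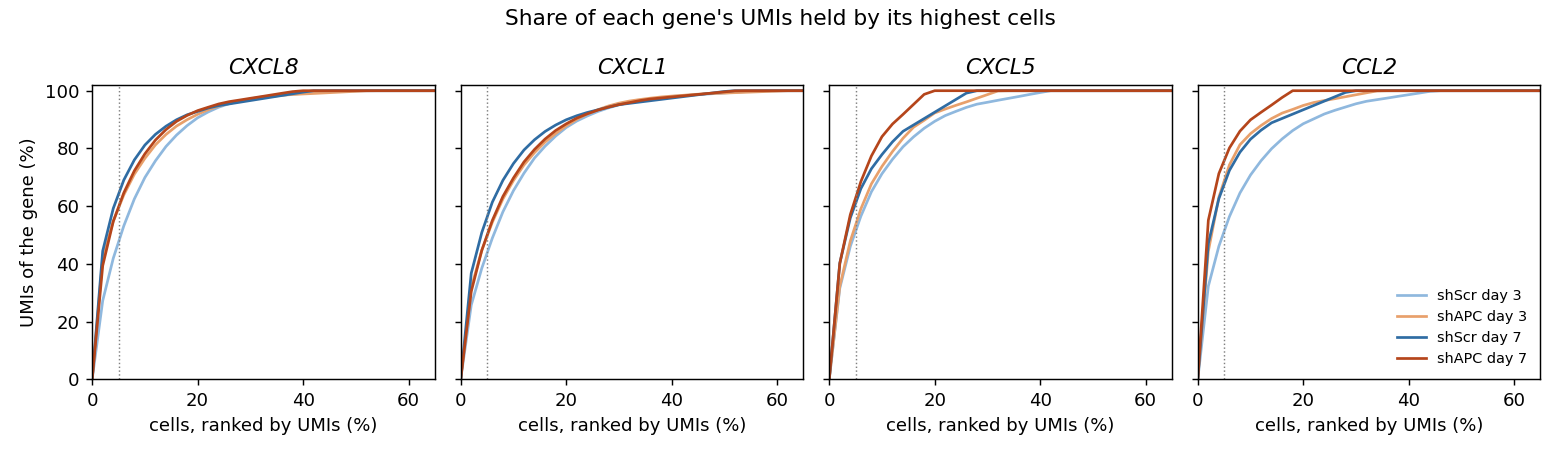
Cumulative share of the UMIs of CXCL8, CXCL1, CXCL5 and CCL2 (vertical, %) against the share of cells ranked from the richest in that gene (horizontal, %), for the 4 libraries. At the dotted line, 5% of cells, CXCL8 reaches 47.9% to 64.6% of its UMIs and CCL2 51.5% to 76.2%.

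Because depth differs between cells, those of at least 5000 UMIs were thinned to 5000 UMIs each, which left 809, 616, 1036 and 994 cells. At equal depth the top 5% of cells held 40.9% to 55.9% of CXCL8 UMIs and 34.5% to 41.8% of CXCL1 UMIs, against medians of 20.2% to 20.9% over genes of at least 100 CPM. At most 1.31% of those genes had a higher share than CXCL1, and at most 0.703% a higher one than CXCL8. Cells with at least 10 CXCL1 UMIs among 5000 were 9 of 809 (1.11%, exact binomial interval 0.51% to 2.10%) in shScr day 3 and 22 of 616 (3.57%, 2.25% to 5.36%) in shAPC day 3, then 32 of 1036 (3.09%) in shScr day 7 and 21 of 994 (2.11%) in shAPC day 7. A single cell of shAPC day 3 held 819 CXCL8 UMIs, 9.56% of that library's CXCL8, and a single cell there held 220 CXCL2 UMIs, 14.9%. Without the richest cell of each library the day 3 ratio was 0.42 for CXCL8 and 1.09 for CXCL2. Doublets were not removed, and without the 5% of cells with the most UMIs the ratios were 0.54 for CXCL8 and 1.04 for CXCL2.

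The top 5% of cells and the rest were next compared separately. So that counting noise did not enter both steps, the 5000 UMIs of each thinned cell were divided at random into 2 equal sets, cells were ranked by the gene's UMIs in 1 set, and the level was measured in the other. In the top cells CXCL8 had a mean of 1044 CPM in shScr day 3 and 2103 CPM in shAPC day 3, a log2 ratio of 1.01 (0.65 to 1.38). In the other 95% of cells it had 109 and 133 CPM, a ratio of 0.29 with an interval that included 0 (-0.0029 to 0.57). The day 3 difference of CXCL8 was thus larger in the cells ranked highest than in the others. The last CXCL8 top cell was ranked on 2 UMIs in shScr day 3 and on 3 in shAPC day 3, so these top sets are not fully alike. Over all kept cells the day 3 ratio of CXCL8 was 0.12 with TMM. The day 3 median of all genes, without thinning, was 0.28. At day 7 CXCL8 had -0.31 (-0.62 to -0.00015) in the top cells and -0.84 (-1.07 to -0.62) in the others. CXCL1 had the same layout at day 3, with 1.00 (0.66 to 1.35) in the top cells and 0.29 (0.07 to 0.51) in the others. The last CXCL1 top cell was ranked on 3 UMIs in shScr day 3 and on 5 in shAPC day 3. CCL2 had 654 and 490 CPM in the top cells at day 3, a ratio of -0.41 (-1.03 to 0.18), and 66.7 and 32.1 CPM in the others, -1.05 (-1.57 to -0.56). At day 7 its ratios were -1.43 (-2.02 to -0.88) and -1.91 (-2.39 to -1.45). The intervals of CCL2 overlapped between the top cells and the others at both days. The last CCL2 top cell was ranked on 2 UMIs in both shScr libraries and on 1 in both shAPC libraries. The CCL2 top sets are thus weakly ranked and not fully alike. The last CXCL5 top cell was ranked on 1 UMI, or on 0 in shAPC day 7, so the level in the CXCL5 top cells is not given. Outside the cells ranked highest the CXCL5 ratios were -1.16 (-1.70 to -0.64) at day 3 and -1.48 (-1.96 to -1.02) at day 7.

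**Figure D4:**
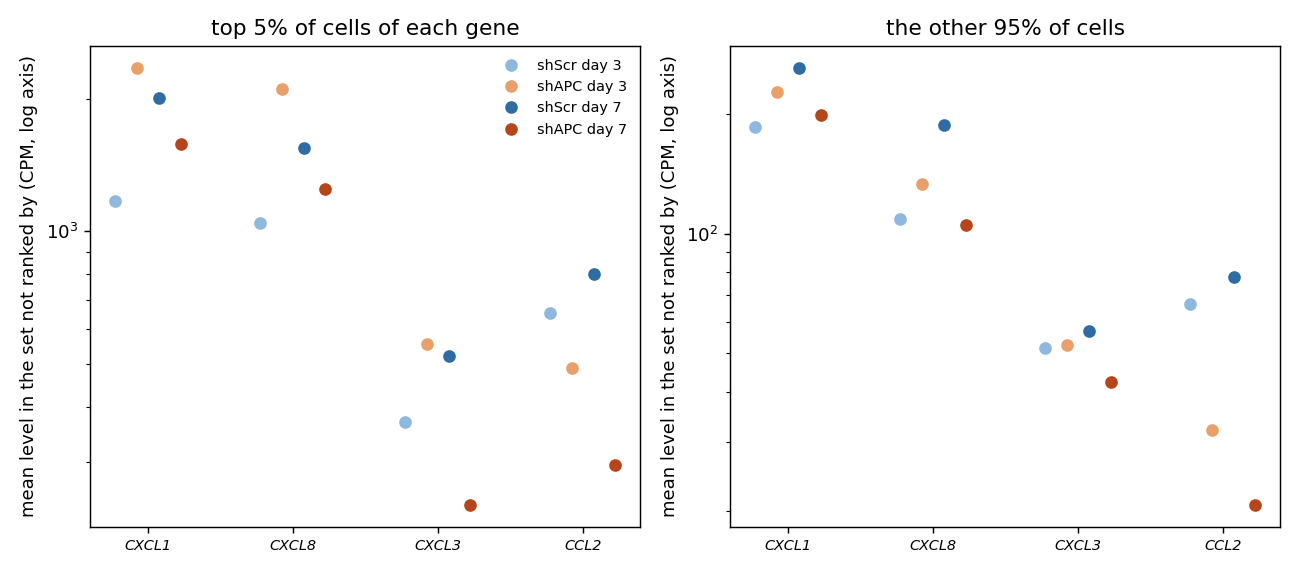
Mean level (CPM, log axis) of 4 genes in the 5% of cells richest in that gene (left) and in the other 95% (right), for the 4 libraries, with cells ranked by 1 of 2 equal random sets of their thinned UMIs and measured in the other. CXCL8 and CXCL1 are highest in shAPC day 3 in the left panel, and in the right panel both shAPC points of CCL2 (32.1 and 20.8 CPM) lie below the shScr points. The last top cell was ranked on 1 UMI for CXCL3 in all 4 libraries and for CCL2 in both shAPC libraries.

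The share of cells with at least 1 UMI was taken in cells thinned to 2000 UMIs, with shallower cells left out (217, 115, 1402 and 391 cells). For CXCL5 it was 9.90%, 5.20%, 11.5% and 4.05%, and 41.9%, 32.2%, 26.8% and 18.8% without thinning. For CCL2 the thinned share was 12.3%, 7.13%, 14.0% and 6.26%, against 44.9%, 34.3%, 28.8% and 17.9% at full depth. Both genes were thus found in fewer shAPC cells at each day at equal depth. CXCL8 was found in 19.1% of thinned shScr cells at day 3 (16.6% to 21.9%) and in 17.4% of shAPC cells (14.6% to 20.5%), so its higher day 3 level came without a detectably larger share of cells. At day 7 the CXCL8 shares were 26.5% and 17.9%, and at full depth all 4 were 45.6%, 52.4%, 41.7% and 39.1%. IL6 was found in 0.556%, 1.34%, 0.835% and 0.552% of thinned cells, close to the level of single UMIs, and in 4.93%, 10.7%, 2.73% and 2.30% at full depth. The libraries hold 1 cell line and no cell type known to lack these genes, so the share that free RNA alone would give was not available.

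The members were then compared for whether the same cells were rich in several of them, over cells of at least 5000 UMIs ranked by the gene's share of the cell's UMIs, with equal list sizes of 41, 31, 52 and 50 cells. CXCL1 and CXCL8 shared 41.5%, 48.4%, 48.1% and 46.0% of their top cells. In no library did CXCL8 have a higher overlap with any gene of at least 100 CPM, and the median such gene shared 3.23% to 5.77%. Pairs among CXCL1, CXCL2, CXCL3 and CXCL8 shared 31.7% to 61.5% over the 4 libraries. CXCL5 and CXCL6 shared 39.0%, 25.8%, 30.8% and 28.0% with each other and 7.69% to 30.0% with those 4 genes. CCL2 shared 39.0% and 48.1% of its top cells with CXCL8 in the shScr libraries, and 29.0% and 18.0% in the shAPC libraries. With CXCL5 it shared 2.44%, 3.23%, 5.77% and 10.0%, beside 4.88% to 6.45% for the median gene with CCL2. CXCL5 and CCL2, the pair lower in shAPC at both days, thus had few top cells in common.

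**Figure D5:**
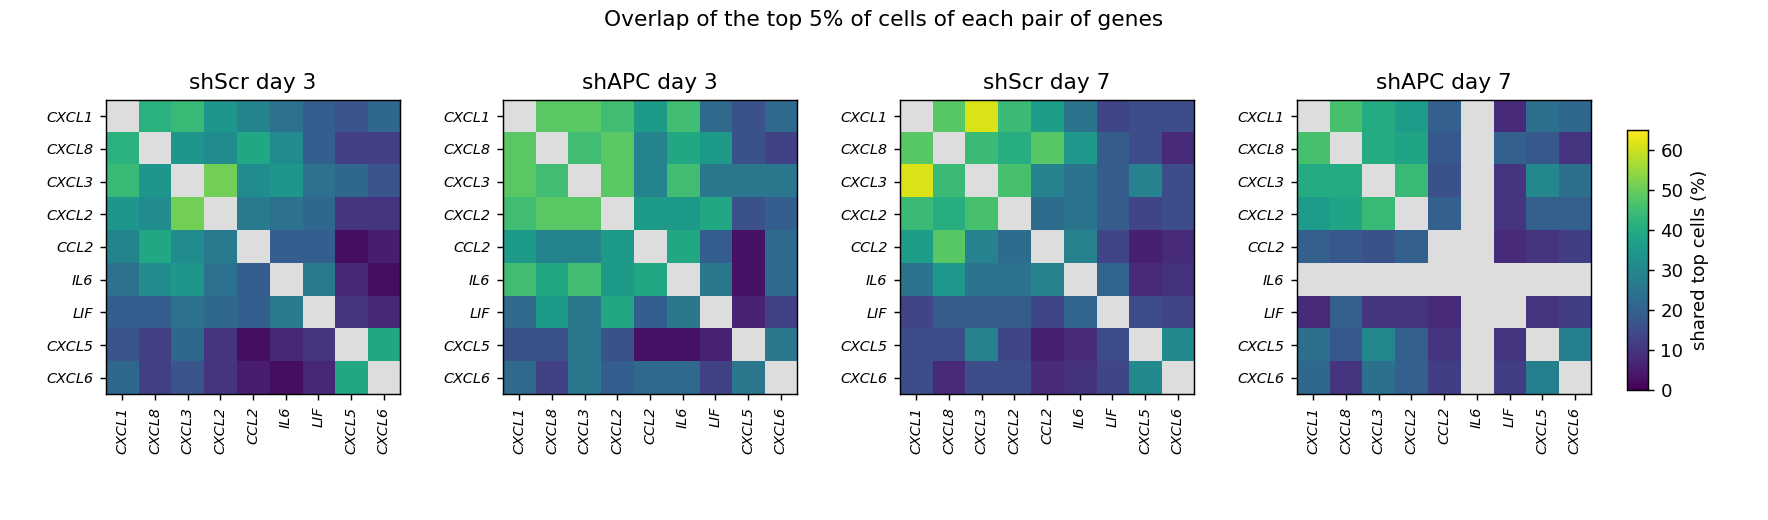
Share of the top 5% of cells (%) that each pair of genes had in common in each library, over cells of at least 5000 UMIs. Grey cells on the diagonal and for IL6 in shAPC day 7 have no value, the block of CXCL1, CXCL8, CXCL3 and CXCL2 lies between 31.7% and 61.5%, and CXCL5 with CCL2 lies at 2.44% to 10.0%.

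Across cells, the genes most like CXCL8 were ranked by the lowest Pearson r over the 4 libraries. The ranking covered the 3821 genes of at least 20 CPM in all 4 libraries. The r is across cells of 1 library that share a depth, and has no p. CXCL1 came first (0.56 to 0.63) and CXCL3 second (0.46 to 0.58). SOD2, a mitochondrial superoxide dismutase, had 0.33 to 0.44, TNFAIP3 (A20, an inhibitor of NF-κB signalling) 0.29 to 0.47, and CSF3, which drives neutrophil production, 0.26 to 0.38. CCL2 was 7th (0.21 to 0.37), CXCL6 10th (0.17 to 0.27) and CXCL5 16th, with 0.13 to 0.28 for CXCL5. CXCL2, IL6, LIF and IL1B did not reach the minimum level and were not ranked. Their r was 0.23 to 0.43, 0.19 to 0.37, 0.12 to 0.25 and 0.09 to 0.23.

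Receptors, regulators and other secreted factors of the same pathways were counted as lists. Of 11 receptors, 8 were measured at day 3 and none was 2-fold different at either day on the log2(CPM + 1) scale, on which all lists were counted. CXCR1 and CCR2 had 0 UMIs in all 4 libraries, which allows up to 0.0754 to 0.105 CPM for 3 counts, and CXCR2 had 2, 1, 0 and 0 UMIs. The transcripts of these 3 signalling receptors were thus at or under the floor. ACKR1, a decoy receptor that binds chemokines of both classes without classical signalling, had 50, 18, 67 and 48 UMIs, and ACKR3, which binds CXCL12, had 1, 7, 0 and 4. Without the pseudocount the day 3 log2 ratios were -1.29 (-2.15 to -0.48) for ACKR1 and 2.99 (0.03 to 8.49) for ACKR3. Among the cytokine receptors IL6ST had 169, 148, 126 and 90.4 CPM, LIFR 8.67, 5.81, 8.04 and 4.46 CPM and IL1R1 15.5, 24.2, 15.6 and 17.8 CPM.

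All 10 regulators of these transcripts had ratios above 0 at day 3, with a median of 0.51 (0.24 relative to all genes). The median of all genes was itself above 0, and the share of all genes above 0 was not counted. With TMM, ZFP36 (-0.35), ZFP36L1 (-0.26) and ZC3H12A (-0.09) lay below 0. At day 7, 9 of the 10 were below 0, with a median of -0.35 (-0.26 relative to all genes). TNFAIP3 was the only one at least 2-fold higher, with 53.1, 166, 70.3 and 53.2 CPM in the 4 libraries. NFKBIA, which holds NF-κB in the cytoplasm, had 58.1, 90.8, 85.1 and 48.5 CPM, higher in shAPC at day 3 and in shScr at day 7, as CXCL8 was. Among 17 other cytokines and chemokines, 14 were measured. At day 3, 1 was at least 2-fold higher and 1 lower, beside 3.86% and 0.425% of all genes tested. At day 7, 0 were higher and 2 lower, beside 0.787% and 1.77%. The medians were 0.27 and -0.49, against 0.28 and -0.10 for all genes, so at day 3 this list lay at the median of all genes. IL1A, the other main form of interleukin 1, had 6, 172, 31 and 5 UMIs. IL18, also of the interleukin 1 family, had 23.6, 9.33, 29.4 and 7.98 CPM, lower in both shAPC libraries as CXCL5 and CCL2 were. CCL7, a monocyte attractant close to CCL2 in sequence, had 36, 2, 15 and 2 UMIs, and TNF had 19, 49, 21 and 1. With the pseudocount of 1 CPM neither gene was counted as 2-fold different between the shRNAs, so the counts can miss differences of scarce genes.

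The chemokines linked to interferon, CXCL10, CXCL11 and CCL5, differed far more at day 3 than the 10 members. At day 3 CCL5 had 57 shScr UMIs and 1961 shAPC UMIs, CXCL10 had 93 and 1122, and CXCL11 had 10 and 346, whereas at day 7 the same genes had 142 and 64, 76 and 22, and 8 and 44. The cells of shAPC day 3 with a UMI of IFNB1, the gene of interferon β, were 16 of 616 (2.60%). They held 32.9% of the IL6 UMIs of these cells, at 82.3 CPM against 7.64 CPM in the others, and 41.4% of the few IL1B UMIs. For CXCL1 and CXCL8 they held 5.32% and 5.92%, at 408 against 330 CPM and at 333 against 240 CPM. For CXCL5 they held 3.67%, at 30.5 against 36.4 CPM. The shares depend on the depth of these cells, so a share above 2.60% is not by itself a higher level. In shScr day 7, 3 cells had an IFNB1 UMI. They held 12.1% of CXCL8 UMIs, at 4897 against 247 CPM, with CXCL1 at 1689 against 345 CPM, and 21.4% of IL6 UMIs. The 1 such cell of shAPC day 7 held 0 CXCL8 UMIs, and shScr day 3 had 0 such cells. Without cells that had an IFNB1 UMI the day 3 ratio of IL6 was 1.34, and that of CXCL2 remained 1.27.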

How the data were processed

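Single-cell RNA-seq libraries of HCEC 1CT cells (shScr and shAPC, day 3 and day 7, 1 library each) were analysed. The authors aligned the reads to hg38 with Cell Ranger and deposited raw UMI counts per gene and barcode. The sources differ on the virus (retroviral or lentiviral) and the 10x kit (v2 or V3), and the annotation release is not given in the sources used here. Barcodes were kept if they had 200 genes or more, 500 UMIs or more and a share of the 13 mitochondrial genes under 5%, and no doublets were removed. UMIs were summed per library and scaled to CPM. Intervals at 95% are exact Poisson for CPM, conditional binomial (Clopper-Pearson) for ratios and Clopper-Pearson for shares, and cover counting error only. Calls used log2(CPM + 1) and a 2-fold limit, with no test and no p-value. The genome-wide shares cover genes that reached 20 CPM in either library, while members and list genes needed only 4 UMIs in 1 of them. No fold was given with at most 3 counts in both libraries. Alternatives used TMM (edgeR 4.0.16), DESeq2 1.42.0 size factors, other cell filters, thinned counts and cells left out. Alternatives without shared barcodes, without IFNB1 cells and without the richest cell, and the ranking by a separate set of UMIs, were chosen after seeing the data. Named genes were the 10 members, genes of the fixed lists, the 5 genes most like CXCL8, IFNB1 and APC. The members and lists were chosen with earlier results of these data known. Scripts were tested on simulated data. Promoter sequences are from RefSeq and loci from GENCODE 44.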

Additional observations from a re-analysis of the deposited data

Results flagged for a closer look

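CXCL1, CXCL2, CXCL3, CXCL8 and IL6 had shAPC to shScr ratios on opposite sides of 0 at the 2 days, with counting intervals that excluded 0 at each. The log2 ratios at day 3 and day 7 were 0.45 and -0.30 for CXCL1, 1.27 and -0.92 for CXCL2, 0.59 and -0.43 for CXCL3, 0.50 and -0.67 for CXCL8, and 1.84 and -0.67 for IL6. The median of all genes tested also changed sign, from 0.28 to -0.10, and the share of all genes that did so was not counted. With TMM the day 3 ratios were 0.07 for CXCL1, 0.12 for CXCL8, 0.21 for CXCL3, 0.89 for CXCL2 and 1.46 for IL6. Without each gene's 5% richest cells, CXCL1, CXCL2, CXCL3 and CXCL8 kept their signs. The day 7 ratios of CXCL2 and CXCL3 were then -0.15 and -0.11, and the day 3 ratio of CXCL8 was 0.12. The difference between the days was not tested, since each group holds 1 library. The 5 genes share top cells, so they are not independent of each other.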

How the results depend on the processing

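No paired analysis was possible because each group holds 1 library. Of the ratios of single members under all alternatives, 179 moved by less than their counting error, 128 moved further and 6, whose intervals had excluded 0, reversed. IL1B at day 3, whose interval included 0, also changed sign under 7 alternatives, down to -1.58. CXCL6 at day 7 became 0.050 without its 5% richest cells. Between the days, CXCL5 in shScr became 0.20 in thinned cells, and in shAPC CXCL1 became 0.12 with TMM and 0.13 with DESeq2 factors, and CXCL5 0.064 and 0.065. The median of the members at day 3 was 0.095 with TMM, 0.11 with DESeq2 factors, 0.37 without mitochondrial and ribosomal protein genes in the totals, 0.42 with all barcodes and 0.42 with a mitochondrial limit of 10%, 0.36 in thinned cells and 0.27 without each member's richest cells, where the day 7 median was -0.15. Members at least 2-fold higher at day 3 were 1 with TMM, DESeq2 factors, the mean over cells, thinned cells or a pseudocount of 5 CPM, and 0 without the 5% deepest cells, and the 1 with the mean over cells was LIF. Members at least 2-fold lower were 0 without the deepest cells or in cells thinned to 2000 UMIs, where CXCL5 was at -0.96 and -0.97. They were 2 without each member's richest cells. In cells thinned to 5000 UMIs CXCL5 was at -1.30 at day 3, so its loss of the call depended on the depth of thinning. For all genes, 200 higher and 22 lower at day 3 became 89 and 64 with TMM, 91 and 58 with DESeq2 factors, 110 and 45 after subtracting the genome-wide median, 37 and 5 with a minimum of 100 CPM, and 491 and 37 with none. At day 7, 36 and 81 became 7 and 27 with a minimum of 100 CPM, 164 and 135 with none, and 23 higher with a pseudocount of 5 CPM. Beyond the scalings, whose factors move all genes together, the cause was not tested. The day 3 ratio of IL6 ranged from 0.78 with the mean over cells to 1.87, and rests on few cells. Low counts limit IL6 and IL1B, and 1 library per group limits every comparison.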

Other observations

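In the barcodes removed by the limits on genes, UMIs or mitochondrial share, CXCL5 and CCL2 were lower in shAPC at both days, as in the kept cells. CXCL5 had 93.9 CPM in the removed barcodes of shScr day 3 and 66.3 CPM in those of shAPC day 3, and 83.3 and 20.9 CPM at day 7. CCL2 had 72.6 and 32.4 CPM at day 3 and 105 and 25.8 CPM at day 7. For CXCL8 the removed barcodes had 139 CPM in shScr and 104 CPM in shAPC at day 3, the opposite order to the kept cells, and CXCL2 had 20.0 and 14.0 CPM, also opposite. IL6 had 2.32 and 1.26 CPM in the removed barcodes at day 3, from 11 and 7 UMIs. CXCL1 was higher in shAPC there too at day 3, at 283 CPM against 214 CPM. In the removed barcodes of shScr and shAPC day 7, CXCL8 had 236 and 139 CPM, CXCL1 290 and 253 CPM and IL6 3.13 and 1.02 CPM, the order of the kept cells. CXCL2 had 13.7 and 14.7 CPM there, without the lower shAPC level of the kept cells. Whether damage to these cells bears on the levels was not tested.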
